A study of Homo sapiens with 28 samples.

Results

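STAT6 is the transcription factor that carries the signal of the cytokine IL-13 from the receptor to DNA. When IL-13 binds its receptor, JAK kinases phosphorylate STAT6, which pairs up, enters the nucleus and binds inverted repeats of TTC and GAA set a few bases apart. In the esophagus this pathway is known for switching on the chemokine that draws eosinophils in allergic inflammation, together with feedback inhibitors of JAK-STAT signalling. Acetylation of histone H3 at lysine 27 (H3K27ac) or lysine 9 (H3K9ac) marks active promoters and enhancers, and trimethylation at lysine 4 (H3K4me3) marks promoters.

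The regions described here are 751 of the 4802 regions that the authors' peak list gave for STAT6 in cells treated with IL-13. Each lies at a promoter, upstream of a gene or in an exon by the list's own annotation, shares no base with a STAT6 region of untreated cells, and shares none with a region of the vitamin D receptor (VDR) in cells given vitamin D. They comprised 188 promoter, 432 upstream and 131 exon regions. In the same 3 annotation classes 969 regions were listed, of which 145 were also called in untreated cells and a further 73 shared a base with a VDR region.

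The cells were EPC2, a non-tumour human esophageal epithelial line immortalised with the telomerase gene TERT, so all groups carry that transgene and come from 1 line. For 6 hours they were left untreated or given 100 ng/ml IL-13, 100 nM vitamin D, or the 2 agents together. RNA was sequenced in 12 samples, 3 of each of the 4 groups; whether these were separate cultures is not stated, and the deposited tables give 1 value per group, so no spread between samples can be shown. Chromatin immunoprecipitation (ChIP) gave 1 library per condition, so its differences compare libraries and were not tested.

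The labelled cell type was checked against marker genes in RPKM, reads scaled to transcript length and library size. In untreated cells 9 of 10 epithelial markers lay between 50.7 (TP63) and 16009 RPKM (KRT6A), and EPCAM, the exception, was at 0.71 RPKM. Among 12 leukocyte markers CD68 was at 50.8 RPKM, CD14 at 2.62 RPKM and the other 10 under 1 RPKM, with CD3D and PTPRC listed at 0. PECAM1 and CDH5, the defining endothelial genes, were at 0.000961 and 0.00207 RPKM while the sum of 8 endothelial markers went from 0.662 to 2.22 RPKM with IL-13, most of it VWF, and of 11 fibroblast markers only COL1A1 and FBLN1 exceeded 1 RPKM.

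The 2 STAT6 libraries differed in depth, which bears on the word "only". The background pileup (fragments stacked at an average position) was 3.05 with IL-13 and 1.46 untreated, a ratio of 2.08. The lowest pileup called in untreated cells was 9, which corresponds to 18.8 at the IL-13 depth. By that floor 344 of the 751 regions (45.8%) were high enough that the same relative height would have been called in the untreated library, and 407 were not. For the latter, absence from the untreated list was not detectable at this depth.

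The letters TTCNNNNGAA (N is any base), which STAT6 is known to bind, were looked for in promoter sequences, because the genome build of the regions was not at hand. RefSeq promoters (GRCh38.p14, 250 bases before to 50 after each listed start) were matched by gene symbol for 126 of the 205 gene symbols with a promoter region. The motif is its own reverse complement, so 1 scan covers both strands. A gene counted if any of its listed promoters held it. The motif stood in 7.80% of the 27305 gene symbols with a promoter, in 6.52% of those whose gene was at 1 RPKM or more, in 30 of the 126 genes with a STAT6 promoter region (23.8%), and in 14 of the 35 (40.0%) with a STAT6 summit inside the 300-base window by the hg19 gene start.

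With a spacer of 3 bases (TTCNNNGAA) the same 35 promoters held the letters in 4 cases (11.4%, against 9.38% of all symbols), and with a spacer of 2 (TTCNNGAA) also in 4 (11.4%, against 9.46%). Genes with only upstream or exon regions held the 4-base spacer in 18 of 290 promoters (6.21%). In the narrower window within 50 bases of a summit, which could be placed for the 24 such genes with 1 listed start, 3 (12.5%) held it; both the window and the genes differ from the count over 35 promoters, so the shares cannot be compared. Guanine and cytosine made up a median of 66.2% of the bases in the summit-bearing promoters, 65.0% in promoters of genes at 1 RPKM or more and 58.7% in all. These differences between sets of promoters were not tested.

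The following stretches show the sites, in capitals, in promoters under these regions. The gene starts of the 2 builds were not matched by coordinate. CAPN14 and BCL6 each have 2 listed starts, of which 1 holds the letters shown, for BCL6 those with a spacer of 3.

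CAPN14 (GRCh38.p14, chr2:31217596-31217725, minus strand): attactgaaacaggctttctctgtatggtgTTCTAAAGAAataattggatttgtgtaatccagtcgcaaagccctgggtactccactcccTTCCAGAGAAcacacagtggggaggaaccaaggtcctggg
ZC3HAV1L (chr7:139036063-139036132, minus strand): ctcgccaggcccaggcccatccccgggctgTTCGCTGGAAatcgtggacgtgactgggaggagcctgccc
IL20RB (chr3:136957846-136957915, plus strand): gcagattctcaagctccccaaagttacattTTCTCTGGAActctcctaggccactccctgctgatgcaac
TMED2 (chr12:123584302-123584362, plus strand): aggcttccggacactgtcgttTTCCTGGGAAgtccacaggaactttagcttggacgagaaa
LTBR (chr12:6383957-6384026, plus strand): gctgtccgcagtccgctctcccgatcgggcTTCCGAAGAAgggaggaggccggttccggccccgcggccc
BCL6, with a spacer of 3 (chr3:187745474-187745526, minus strand): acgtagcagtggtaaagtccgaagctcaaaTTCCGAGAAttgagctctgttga

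CAPN14, which encodes a calcium-dependent protease of the esophageal epithelium, was chosen for its RNA response and held 2 sites, 180 and 120 bases before that start. The STAT6 region there spans 243 to 7 bases before the gene start of the RNA table. ZC3HAV1L (60 bases before the start), IL20RB (107), TMED2 (229) and LTBR (175) are 4 of 10 genes with 1 listed start whose site fell inside the STAT6 region. Of these 10 genes 9 were tested in the RNA and 3 were higher with IL-13. Of 27 tested genes whose region covered the window with no such site 9 were higher. The 3 higher genes, ZC3HAV1L, IL20RB and TMED2, are all among the 4 shown. LTBR and the genes not shown did not pass, so the 4 do not represent the RNA response of the 10. The regions of IL20RB (pileup 12, the lowest called) and ZC3HAV1L (18) were under the depth floor. Those of TMED2 (19) and LTBR (25) were above it. Neither listed promoter of BCL6 held the letters with the 4-base spacer. One of them held 4 letter matches with a 3-base spacer within its 300 bases, the first 28 bases before the start and shown here. SOCS1 and CCL26 had none of the 3 spacings in their single listed promoter, although the SOCS1 region, which runs from 1348 to 85 bases before the start, covers part of that window. The CCL26 region lies outside it.

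The regions were chosen by being called in the IL-13 STAT6 library and not in the others, so their pileup, fold enrichment and q are given as description. The regions were 150 to 2336 bases wide (median 338), with a summit pileup of 12 to 117 (median 18), a fold enrichment over background of 3.21 to 29.2 (median 4.70), and a -log10 q of 1.53 to 134 (median 5.56). At the lower edge 45 regions had the lowest pileup called, 12. In the 145 regions left out because untreated cells also had one, the median IL-13 pileup was 23. The closest region of untreated STAT6 lay 63 bases from a member and the closest VDR region 7 bases away; 26 and 22 regions lay within 500 bases of one.

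Promoter regions sat from 1485 bases before to 1358 after the annotated start, and 39 of the 188 had their summit from 250 before to 50 after it. Upstream regions lay a median of 10102 bases before the start and exon regions a median of 26839 bases into the gene. The list named 685 gene symbols, 679 of which were found in the RNA tables, and 584 had 1 region. By contrast 25 symbols had 5 or more regions each and held 119 regions between them. They include FRG1B (12 regions) and BAGE (9 regions), which belong to duplicated gene families, and 73.1% of their regions lay within 5 kb of an untreated STAT6 region, compared with 2.69% of the other 632. Chromosome 20 held 7.59% of the regions but 2.78% of the untreated H3K4me3 regions, and chromosome 1 held 16.2% against 10.1%; without the 25 symbols the shares were 6.17% and 14.1%. The STAT6 and histone libraries were each called against 1 constant genome-wide background, and the part of copy number in these shares was not tested.

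The strongest region spans chr5:131724000-131726335 (hg19) in an exon of SLC22A5, the carnitine transporter, with a pileup of 117, a fold enrichment of 29.2 and a -log10 q of 134. In the authors' deposited table SLC22A5 RNA went from 3.18 RPKM untreated to 4.21 RPKM with IL-13, a log2 fold change of 0.37 (adjusted p = 3.37e-05). The second region, at chr3:50638015-50639748 (pileup 98), is annotated to MAPKAPK3, a kinase of the p38 pathway. MAPKAPK3 stood at 33.5 and 43.8 RPKM in the authors' deposited table (log2 0.36, adjusted p = 1.86e-14). CISH, a feedback inhibitor of JAK-STAT signalling, starts 10.6 kb from that summit and had the larger change, from 3.9 to 23.3 RPKM (log2 2.49, adjusted p listed as 0 in the authors' deposited table). The annotated gene is thus the list's choice of neighbour and need not be the gene with the largest change nearby.

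Among the other 10 strongest regions, that of PDE6A, a phosphodiesterase subunit, lies in an exon (pileup 77). PDE6A RNA was low, 0.0451 RPKM untreated and 0.396 RPKM with IL-13, and was higher in the authors' deposited table (log2 2.03, adjusted p = 4.05e-27). The region between COPZ1 and NFE2 (pileup 64) lies 3.29 kb from the start of NFE2, a transcription factor of the bZIP family. NFE2 rose from 0.172 to 1.70 RPKM. COPZ1, a coatomer subunit, stood at 56.9 and 60.4 RPKM and did not pass. TNS4, a focal adhesion adaptor with a region of pileup 70, rose from 47.7 to 58.8 RPKM (log2 0.28, adjusted p = 2.46e-13 in the authors' deposited table) and did not pass on vitamin D (adjusted p = 0.125). The regions annotated to SUMF1, HSBP1L1 with PQLC1, MIR202, TBPL2, ANO1, BCL6 and LOC100506795 had pileups of 90, 82, 67, 67, 66, 63 and 62.

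The first question on RNA was whether the annotated genes responded to IL-13, which the choice of regions did not use. Of 546 genes tested (adjusted p below 1 in the authors' deposited table), 177 (32.4%) were higher with IL-13 at an adjusted p of 0.05, where 12.3% of all 15169 genes tested were. Lower genes numbered 74 (13.6%), close to the 14% of all genes. At 2-fold or more, 31 genes were higher (5.68%, against 0.804% of all genes) and 1 was lower (0.183%, against 0.389% of all genes), HCG22, from 0.609 to 0.245 RPKM; it is named because it was the only one. The median log2 fold change was 0.07 for these genes and 0.00 for all genes. By class, 27.2% of genes with a promoter region, 32.3% of those with an upstream region and 40.4% of those with an exon region were higher.

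**Figure D1:**
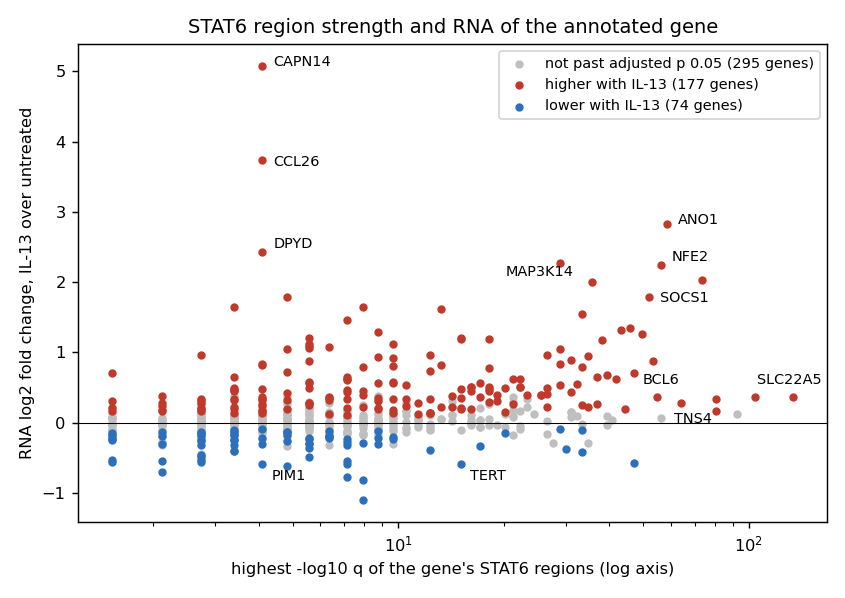
Deposited RNA log2 fold change of IL-13 over untreated (vertical axis) against the highest -log10 q of the STAT6 regions annotated to the gene (horizontal, log axis), 1 point per tested gene of 546. Of the points, 177 are higher, 74 lower and 295 not past an adjusted p of 0.05; CAPN14 and CCL26 stand highest at a -log10 q of 4.10, while the lower genes are mostly at the weaker end.

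The shares changed with region strength. With the regions divided into 4 groups of near-equal size by -log10 q, called strength groups 1 to 4 (medians 2.74, 4.10, 7.12 and 18.1), 20.5%, 25.7%, 28.1% and 51.8% of the tested genes were higher and 17.8%, 15.0%, 14.4% and 5.36% were lower. Strength group 4 held 87 higher and 9 lower genes of 168 tested, and 17 were higher by 2-fold or more, compared with 0 of 146 in strength group 1. At or above the untreated depth floor 118 of 289 genes (40.8%) were higher and 27 lower, and below it 70 of 295 (23.7%) were higher and 50 lower. A gene with regions on both sides of a limit counts in both groups. These differences between groups of regions were not tested.

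**Figure D2:**
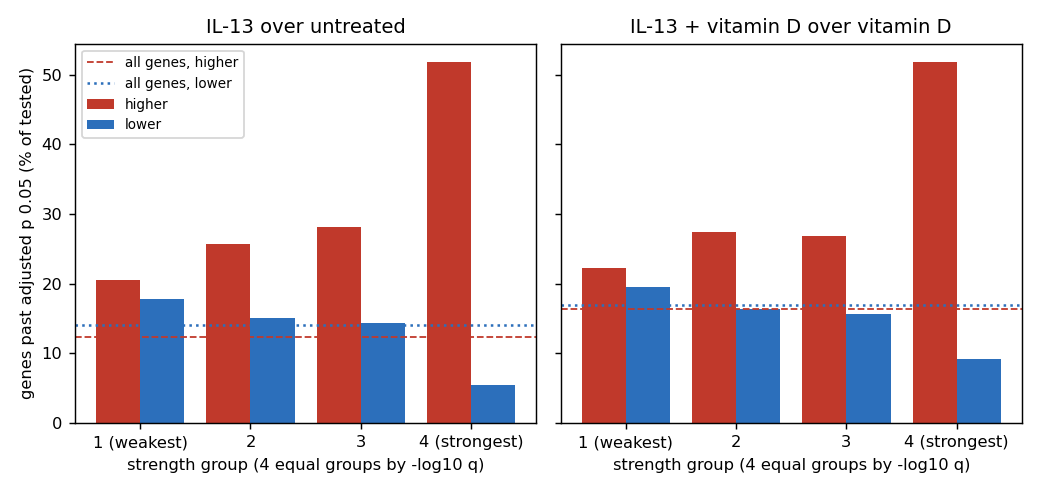
Percent of tested genes past an adjusted p of 0.05 (bars, higher and lower) in each strength group, for IL-13 over untreated (left) and for IL-13 plus vitamin D over vitamin D (right); lines give the same percent over all genes. In both panels the share of higher genes is largest in strength group 4, at 51.8%.

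Values for the other IL-13 STAT6 regions are given beside these, with no test. Of the genes annotated to IL-13-only regions in introns 33.2% were higher, to those between genes 28.3%, to regions shared with VDR 33.3%, and to regions also present in untreated cells 8.57%. The groups share some genes. Lower genes made up 16.0%, 16.5%, 17.3% and 13.3% of the same groups.

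The same contrast on a background of vitamin D used libraries that the first table does not contain. Of 536 genes tested, 176 (32.8%) were higher with both agents than with vitamin D alone, against 16.4% of all genes, and 83 (15.5%) were lower, against 16.9%. At 2-fold or more 39 were higher (7.28%, against 1.1% of all genes) and 2 were lower (against 0.512%). Of the 177 genes higher without vitamin D, 174 had the same sign with it, 150 (84.7%) were called higher and 0 were called lower. Of all 1862 higher genes 73.6% were called higher again. Of the 74 lower genes 59 (79.7%) were called lower again, and 77.9% of all 2124 lower genes were.

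**Figure D3:**
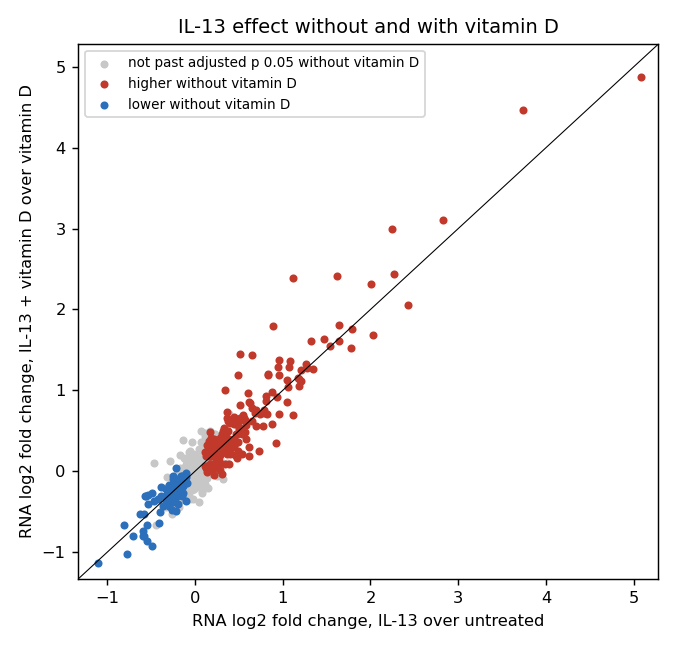
Deposited RNA log2 fold change of IL-13 plus vitamin D over vitamin D (vertical) against IL-13 over untreated (horizontal), 1 point per annotated gene tested in both; the line marks equal values. Genes higher without vitamin D lie mostly along the line, from CAPN14 at the top right down to small changes.

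The genes with the largest changes included known targets of the cytokine. CAPN14 stood at 10.2 RPKM untreated, 358 RPKM with IL-13, 14.8 RPKM with vitamin D alone and 463 RPKM in the combined group. Both IL-13 groups were thus far above both groups without it, and the log2 fold change in the authors' deposited table was 5.08 without and 4.87 with vitamin D (adjusted p listed as 0 for both). Its region, at chr2:31440418-31440654 in hg19, was weak, with a pileup of 16, and lay under the depth floor. CCL26, which encodes the eosinophil attractant eotaxin-3, was at 0.0189 and 0.0173 RPKM in the groups without IL-13 and at 7.85 and 9.73 RPKM with it. Its deposited log2 fold change was 3.73 (adjusted p = 1.17e-88 in the authors' deposited table), smaller than the ratio of its RPKM values, 6.06 with 0.1 RPKM added to each. The CCL26 region also had a pileup of 16, and it lies 17.2 kb past the gene start that the RNA table uses, at the start of another transcript in the peak list. Both regions were thus below the median pileup of 18, although their genes had the 2 largest rises.

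ANO1, a calcium-activated chloride channel, had an upstream region with a pileup of 66 and a second in an exon. ANO1 RNA was 7.31 RPKM untreated, 53.7 RPKM with IL-13, 4.53 RPKM with vitamin D alone and 41.0 RPKM in the combined group (log2 2.83 and 3.10 in the authors' deposited table). DPYD, which breaks down pyrimidines, went from 1.01 to 5.84 RPKM, and C1QTNF1, a secreted C1q-related protein, from 1.82 to 9.46 RPKM. The DPYD region, at chr1:97658525-97658760 with a pileup of 16, was under the depth floor. It lies outside the span that the RNA table gives for DPYD, chr1:98185314-98386615. MAP3K14, the kinase of the non-canonical NF-kappaB pathway, went from 1.78 to 7.64 RPKM and its upstream region had a pileup of 48. ANPEP (an aminopeptidase), ST6GAL1 (a sialyltransferase), CYP1B1 (a cytochrome P450), NABP1 (a single-strand DNA binder), SFRP1 (a secreted Wnt antagonist) and DENND4A (a Rab regulator) rose by log2 values of 1.34 to 1.78 in the authors' deposited table. The ST6GAL1 region, at chr3:186633783-186634245, lies far before the gene start that the RNA table uses, at position 186739665. Both regions of ANPEP (pileup 17 each) were under the depth floor. All 14 genes with the largest rises, ranked among genes at 1 RPKM or more in either group, were also called higher on the vitamin D background.

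CYP27B1, which makes the active form of vitamin D, and LTA4H, a leukotriene A4 hydrolase, fell outside that set and were singled out after their values were seen. CYP27B1 had an exon region with a pileup of 29 and stood at 2.52 RPKM untreated, 6.15 RPKM with IL-13, 2.24 RPKM with vitamin D alone and 4.94 RPKM in the combined group. The 2 IL-13 groups were above the other 2, with log2 values of 1.19 and 1.05 in the authors' deposited table. LTA4H stood at 76.4, 187, 73.1 and 190 RPKM in the same order, and its upstream region had a pileup of 59.

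The falls were smaller. The 10 largest in genes at 1 RPKM or more ran from log2 -0.54 (RHCG, an ammonium transporter) to -0.81 (SIRPB2) in the authors' deposited table. TINAGL1, a matrix protein, went from 51.3 to 30.6 RPKM, ATP2B4, a calcium pump, from 53.2 to 33.0 RPKM, and PIM1, a kinase that STAT proteins are known to induce in other cells, from 57.0 to 38.3 RPKM. FBXO32 (a ubiquitin ligase subunit), KRT23 (a keratin), ABTB2 and C6orf141 were the others, with TERT. All 10 were called lower again on the vitamin D background. The regions of ATP2B4 and RHCG (pileup 13 each), KRT23 (14), PIM1 (16) and C6orf141 (17) were under the depth floor of 18.8. Those of TINAGL1 and FBXO32 (20 each), SIRPB2 (21), TERT (29) and ABTB2 (57) were above it. TERT, at 111 and 74.7 RPKM, cannot be told apart here from the transgene that immortalised the line.

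Within the JAK-STAT pathway and its feedback, 6 of the 37 listed genes had such a region. SOCS1, which inhibits JAK kinases, had a promoter region with a pileup of 61 and rose from 4.18 to 15.7 RPKM, and with vitamin D from 5.04 to 18.4 RPKM (log2 1.79 and 1.76 in the authors' deposited table). BCL6, a repressor that competes with STAT6 for its sites, stood at 10, 13, 4.88 and 7.93 RPKM in the untreated, IL-13, vitamin D and combined groups. It rose by log2 0.37, and by 0.66 on vitamin D, in the authors' deposited table. STAT3 rose from 26.7 to 31.1 RPKM, PIM1 fell, and SOCS3 (0.797 and 0.844 RPKM) and STAT4 (0.745 and 0.959 RPKM) did not pass. The regions of STAT3 (pileup 14) and PIM1 (16) were under the depth floor. The highest pileups of SOCS1, BCL6 (63), SOCS3 (27) and STAT4 (24) were above it. Of all 37 genes in the list, 8 were higher and 9 lower, so the pathway list as a whole had a median log2 of -0.02.

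Of 38 listed genes of the epithelial IL-13 response, a list of known responders, 8 had a region: CAPN14, CCL26, ANO1, SOCS1, CYP1B1, PDCD1LG2, TGM2 and CST1. The 7 that were tested rose, as did 25 of the 29 tested in the whole list. TGM2, a transglutaminase, stood at 6.56, 14.6, 2.77 and 15.0 RPKM in the untreated, IL-13, vitamin D and combined groups. Its values with IL-13 were alike while that with vitamin D alone was the lowest of the 4. PDCD1LG2, the checkpoint ligand PD-L2, went from 1.89 to 4.34 RPKM. CST1 was listed at 0 untreated and at 0.00733 RPKM with IL-13 and was not tested.

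Of all 23529 genes with a unique symbol in the RNA tables, 679 had such a region. The share of genes with such a region was not tested between the gene lists and all genes. Among 48 junction genes 4 had one: PKP2 (plakophilin 2; region pileup 62; 9.11 to 17.2 RPKM), CDH3 (P-cadherin; 167 to 242 RPKM) and DSC3 (desmocollin 3; 156 to 204 RPKM) rose, and ITGB6 (an integrin; 23.3 to 20.8 RPKM) fell. In the list as a whole 9 rose and 20 fell of 47 tested. Among 58 genes of squamous differentiation 5 had one: DSG3 (desmoglein 3; 437 to 505 RPKM), LCE3D (57.7 to 80.9 RPKM) and KRT16 (6910 to 8500 RPKM) rose, HRNR fell, and KRT6A (16000 and 16900 RPKM) did not pass. In that list 5 rose and 40 fell of 55 tested, so 3 of the 5 genes that rose carried a region and 1 of the 40 that fell did. On the vitamin D background 2 of 6 that rose and 0 of 37 that fell did, since KRT16 (adjusted p = 0.0614) and HRNR (adjusted p = 0.0843 in the authors' deposited table) did not pass there. The highest region pileups of KRT16 (13), HRNR (18), DSC3 (16) and ITGB6 (17) were under the depth floor of 18.8. Those of DSG3 (30), LCE3D (20), KRT6A (27), CDH3 (30) and PKP2 were above it.

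Of 5 squamous transcription factors with a region 2 rose and 1 fell, and in the whole list 12 rose and 18 fell of 45 tested. KLF6 (45.3 to 50.3 RPKM) rose, BNC1 (28.9 to 23.4 RPKM) fell, and KLF9 and KLF2 did not pass. The other that rose is not reported here. KLF6 did not pass on the vitamin D background (adjusted p = 0.488 in the authors' deposited table). Of the remaining lists, MET (18.9 to 21.9 RPKM) rose among EGF receptor family genes and ligands. IL1A (58.3 to 54.0 RPKM) fell among NF-kappaB genes and did not pass on the vitamin D background (adjusted p = 0.553 in the authors' deposited table). Among immediate early and stress genes JUNB (114 to 107 RPKM) fell and GADD45A (148 and 143 RPKM) did not pass. In these lists, in that order, 2 of 17, 0 of 27 and 2 of 39 tested genes rose, and 9, 11 and 18 fell. Of the epithelial markers SFN, KRT14 and KRT6A had a region and none passed. None of the 11 fibroblast, 12 leukocyte or 8 endothelial markers had one, where 679 of all 23529 genes did.

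Histone marks were compared over the regions in 4 libraries each. H3K27ac was called over 67.9% of the 751 regions untreated, 65.1% with IL-13, 58.2% for vitamin D alone and 66.2% for both agents. Over all H3K27ac regions, each called in at least 1 library, the shares were 86.0%, 46.3%, 48.2% and 49.9% in the same order. Of the 550 STAT6 regions with H3K27ac in any library, 510, 489, 437 and 497 had it in that order. H3K4me3 was called over 22.5% to 23.7% in every library, and over 67.6% to 69.7% of the promoter regions. H3K9ac was called over 36.8% untreated and 37.7% with vitamin D, and over 43.7% with IL-13 and 44.2% with both, so both IL-13 libraries were above both others. Over all H3K9ac regions, each called in at least 1 library, they were 49.3% and 55.0% without IL-13 and 49.4% and 52.2% with it. Of the 441 STAT6 regions with H3K9ac in any library, 276 and 283 had it without IL-13 and 328 and 332 with it. In strength group 4 H3K9ac was called over 44.7% and 46.3% of regions without IL-13 and over 63.3% and 66.0% with it, whereas in strength group 1 the values were 30.9%, 32.4%, 33.0% and 35.6%.

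**Figure D4:**
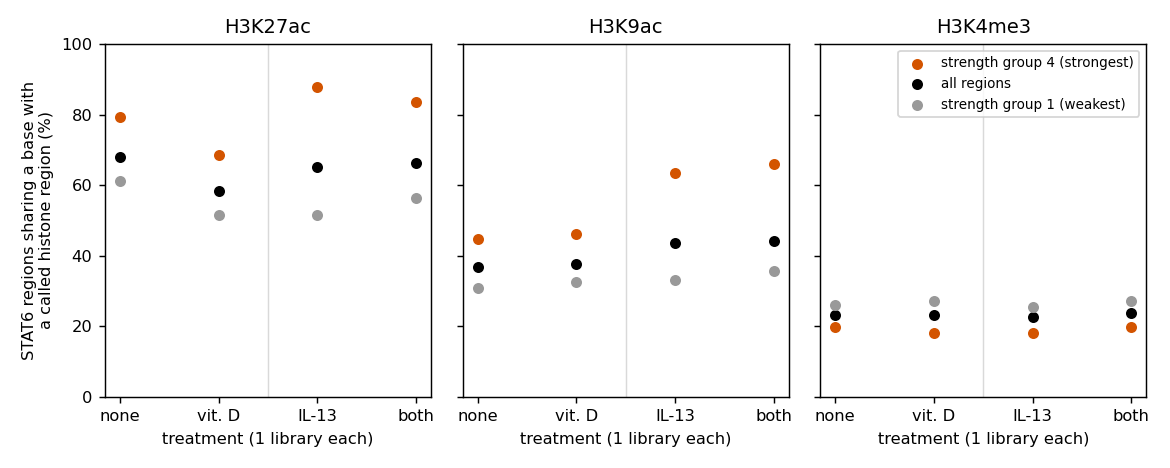
Percent of the STAT6 regions sharing a base with a called histone region, by treatment (1 library each) and mark, for all 751 regions and for the weakest and strongest strength group by -log10 q. H3K9ac in the strongest group is at 44.7% and 46.3% without IL-13 and at 63.3% and 66.0% with it; H3K4me3 points stay within 18.1% to 27.1%.

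An H3K9ac region was called in both IL-13 libraries and in neither other library over 32 of the 441 regions with any H3K9ac (7.26%; 2.15% over all regions of the mark), and the reverse held for 8 (1.81%, against 2.85%). For H3K27ac the count was 19 of 550 (3.45%, against 0.665%), with 8 in reverse (1.45%, against 4.67%). Among the 186 regions with any H3K4me3 it was 1 (0.538%, against 0.563%), with 3 in reverse. CCL26 was among the 19, with H3K27ac fold enrichments of 8.60 with IL-13 and 8.31 with both and no call in the other libraries. PDE6A (6.61 and 7.03), DSC3 (5.95 and 7.03) and a region of ITGB6 (4.63 and 3.19) had the same pattern. RNA rose with IL-13 for CCL26, PDE6A and DSC3 and fell for ITGB6. Of the 20 tested genes at the 19 regions 6 were higher with IL-13 and 1 was lower.

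The height of H3K27ac, taken as the highest fold enrichment in any histone region that shares a base with the STAT6 region, could be compared in 402 regions called in all 4 libraries. The summit of a wide histone region may lie outside the STAT6 region. The untreated H3K27ac library was the deepest (background 1.4, against 0.512 to 0.731 in the others), and the median log2 ratio over all 33646 H3K27ac regions was -0.53 for IL-13 over untreated and -0.18 for both over vitamin D. Relative to these medians the STAT6 regions were at 0.16 and 0.15, and 35 (8.71%) were past 1.5-fold higher in both pairs of libraries, where 1.19% of all H3K27ac regions were. Lower in both pairs were 7 (1.74%, against 0.559%). Without that correction the counts were 13 higher (3.23%, against 0.187%) and 19 lower (4.73%, against 6.78%).

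**Figure D5:**
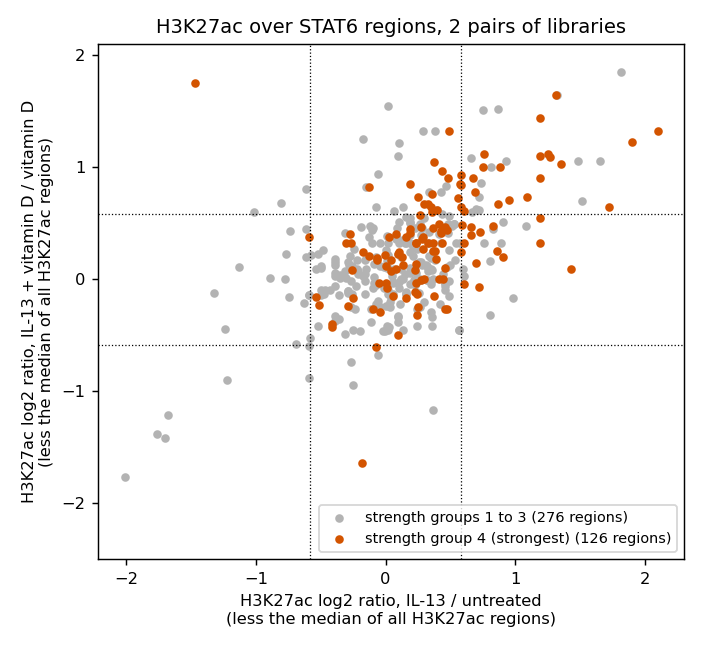
H3K27ac log2 ratio of both agents over vitamin D (vertical) against IL-13 over untreated (horizontal), each less the median over all H3K27ac regions, for the 402 STAT6 regions with a call in all 4 libraries; dotted lines mark 1.5-fold. Of these, 35 lie beyond both lines at the upper right, 19 of them from the strongest group of STAT6 regions, and 7 at the lower left.

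By strength, 2 of 83, 7 of 87, 7 of 106 and 19 of 126 regions in strength groups 1 to 4 were higher in both pairs by this measure. The genes annotated to the 35 regions had 32 tested members, of which 18 (56.2%) were higher in RNA with IL-13 and 4 lower, compared with 33.0% higher for the other regions with H3K27ac in all 4 libraries. Of the genes whose region had H3K9ac called only with IL-13, 18 of 31 (58.1%) were higher. For the 19 regions with H3K27ac called only with IL-13 6 of 20 genes were higher, and 8 of 16 were on the vitamin D background. Where no histone region of any mark was called over the STAT6 region (179 regions), 11 of 74 genes were higher (14.9%) and 10 lower, close to the 12.3% and 14% of all genes.

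The largest H3K27ac rise in the smaller of the 2 pairs was upstream of PTPN4, a tyrosine phosphatase, at 5.43 untreated, 13.2 after IL-13, 4.62 after vitamin D and 14.7 after the combination. PTPN4 RNA stood at 2.07, 4.16, 1.65 and 4.55 RPKM in the same order, so both readouts were higher in both IL-13 groups. An exon region of LSM12, an RNA-binding protein gene, had fold enrichments of 6.68, 19.8, 5.78 and 12.8, while LSM12 RNA rose from 3.95 to 4.86 RPKM (log2 0.27) and did not pass on the vitamin D background (adjusted p = 0.381 in the authors' deposited table). Upstream of DENND4A they were 4.59, 11.9, 4.62 and 9.58, and upstream of NABP1 7.09, 12.6, 6.36 and 11.5. The regions upstream of COL7A1 and UQCRC1, of MIR3925 and of LOC400891 with SLC7A4 had IL-13 values of 14.5, 15.2 and 7.94 against 7.51, 8.76 and 4.59 untreated. COL7A1 RNA rose only from 84.6 to 92.6 RPKM (log2 0.11) and did not pass on the vitamin D background (adjusted p = 0.280 in the authors' deposited table). MIR3925, listed at 0 RPKM, and LOC400891, at 0.00618 and 0.0154 RPKM, were not tested. An eighth region of this rank is not reported here.

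At other named genes H3K27ac did not follow 1 pattern. The SOCS1 promoter stood at 21.3, 24.5, 16.8 and 19.8 and the region of SLC22A5 at 17.5, 15.2, 10.4 and 14.7. At the BCL6 promoter the values were 18.8 untreated and 13.9 with IL-13, and 17.3 with vitamin D and 10.9 with both, below the median shift in the second pair although BCL6 RNA rose. C1QTNF1 RNA rose, and H3K27ac differed between its 2 regions. Upstream of C1QTNF1 and CANT1 (STAT6 pileup 42) the values were 23.8 and 14.5, and 22.5 and 6.39. Relative to the medians over all H3K27ac regions the log2 ratios there were -0.18 and -1.64. At its promoter region (STAT6 pileup 19) the values were 3.34 and 6.61, and 5.78 and 8.31. The log2 ratios there, relative to the same medians, were 1.51 and 0.70. At the weaker CAPN14 region the fold enrichments were 3.76 untreated and 5.29 with IL-13, with no call for vitamin D and 5.75 for both.

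For H3K9ac 192 regions were called in all 4 libraries. Without the correction for the median 3 were past 1.5-fold higher in both pairs (1.56%, against 0.224% of all regions of the mark) and 3 lower (against 0.79%), and with it 5 were higher (2.60%, against 0.357%) and 3 lower (against 0.475%). For H3K4me3, of 163 regions, 0 were higher with or without the correction (against 0.0869% and 0.0683%), and 2 and 3 were lower (against 0.13% and 0.335%). With 1 library per condition the spread of these counts between replicates is unknown.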

How the data were processed

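RNA and ChIP libraries of EPC2 cells were processed by the authors, who list MACS2, Bowtie, STAR, Trim Galore and SAMtools, with hg19 and GRCh37 as builds, per the submitters' processing notes. The deposited peak lists give pileup, a signal, with fold enrichment, a ratio, and −log10 p and q values per the file headers. The deposited RNA tables give RPKM per group, a log2 fold change and an adjusted p-value; the sources used here do not name the test behind it. An adjusted p of 1 was taken as not tested, and calls used 0.05. Depth behind the RPKM values and the spread between samples are unknown, so no error could be computed. One RNA table, labelled as comparing IL-13 with both agents, held the vitamin D values for all 23529 genes with a unique symbol and was read as vitamin D against both.

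Regions were compared by shared bases, and histone ratios used 1.5-fold, with Python 3.11.15, numpy 2.4.6, pandas 2.3.3 and matplotlib 3.10.9; the steps were tested on simulated data. Of annotated symbols 6 were not matched. Genes named are the 14 largest rises and the 10 largest falls, both at 1 RPKM or more in either group. Members of the gene lists, the 12 strongest regions and the leading H3K27ac rises are named as well. The members and lists were chosen with earlier results of these data known. Some results of the listed genes are not reported here.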

Additional observations from a re-analysis of the deposited data

How the results depend on the processing

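No paired analysis was possible because the RNA tables hold 1 value per group and ChIP has 1 library per condition; for the same reason no replicate could be left out. No single count or ratio changed sign, but the balance of H3K27ac did: without scaling fewer regions were higher (13) than lower (19) in both pairs and the median log2 ratios were -0.37 and -0.03, while after dividing by the median ratio more were higher (35) than lower (7) and the medians were 0.16 and 0.15. The number of genes higher with IL-13 (177) was between 118 and 177 under the 7 alternatives. A -log10 q of at least 5 left 393 of the 751 regions and 33 of the 74 lower genes. The depth floor, chosen after seeing the data, left 344 regions, 27 lower genes, and on vitamin D 113 of 176 higher and 36 of 83 lower genes; it also left 6 of 19 regions with lower H3K27ac, 2 of 8 that lost H3K27ac, 3 of 8 that lost H3K9ac and 0 of 1 that gained H3K4me3. Using pileup, H3K27ac was higher in both pairs in 3 regions in place of 13 and lower in 59 in place of 19, and H3K9ac was higher in 7 in place of 3. Dividing by the median ratio gave 5 regions with higher H3K9ac. Counting histone regions within 500 bases gave 3 regions that lost H3K27ac, 5 that lost H3K9ac, 0 that gained and 1 that lost H3K4me3. The motif count of 14 became 4 with a spacer of 3 and 4 with a spacer of 2; within 50 bases of a summit it was 3, in a narrower window and in 24 genes with 1 listed start in place of 35. With every gene of the tables as denominator, chosen after seeing the data, 26.1% of annotated and 7.91% of all genes were higher with IL-13. A pseudocount of 1 in place of 0.1 kept the sign of the RPKM ratio in 51 of 51 named genes and moved 4 by 1.5 times or more. The cause of these changes was not tested, beyond fewer regions entering under the stricter limits.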
